A study of Mus musculus with 16 samples.

Results

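Transcripts of 10 genes for heat shock proteins and their co-chaperones were measured in the hearts of 16 mice. They were taken by name from the deposited table of read counts (Hspa8, Hspa1a, Hspa1b, Hsph1, Dnajb1, Bag3, Hsp90aa1, Hspb1, Cryab and Hspb7), and all 10 of them were among the 16857 genes, of 55573 in the table, that had enough counts to be tested. The list was set by name and not by a cutoff on measured values. WT pups were injected on postnatal day 1 with an adeno-associated virus, either AAV9-cTNT-CARDINAL, which carries the long noncoding RNA Cardinal, or AAV9-cTNT-GFP as the control. In both viruses the chicken cardiac TNT promoter drove the transgene, so that expression was directed to cardiomyocytes. The mice were later subjected to transverse aortic constriction (TAC), which narrows the aorta and loads the left ventricle with pressure, or to a sham operation without the ligature. Poly(A) RNA from the apex of the heart was sequenced from hearts taken 4 weeks after surgery. There were 4 mice in each of 4 groups: sham and TAC hearts with the GFP virus (AAV9-GFP) and sham and TAC hearts with the Cardinal virus (AAV9-Cardinal). All groups therefore carried a virus, and no uninjected heart was among them; the study used male mice, and age at surgery was not given in the sources used here.

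Heat shock proteins are chaperones, which bind unfolded or partly folded proteins and help them fold, hold them soluble or pass them on for degradation. HSP70 proteins work in cycles of ATP hydrolysis that J-domain proteins start and nucleotide exchange factors end, HSP90 takes over late folding steps of many signaling proteins, and small heat shock proteins hold clients without using ATP. Some of these genes are transcribed at all times, others mainly after stress, when heat shock factor 1 binds heat shock elements in their promoters. In heart muscle several small heat shock proteins and BAG3 are abundant and serve the turnover of the sarcomere and the Z-disc.

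Hspb7, a small heat shock protein of striated muscle, rose 1.44-fold with TAC in AAV9-GFP hearts and 1.38-fold in AAV9-Cardinal hearts, with no overlap between sham and TAC mice. Hspb1, which encodes HSP25, the mouse HSP27, rose 1.97-fold with TAC in AAV9-Cardinal hearts, a call close to the threshold (adjusted p = 0.0438 by edgeR) that was lost in 10 of 16 fits with 1 mouse left out. No member passed the threshold, an adjusted p under 0.05, between the viruses, where only 0.101% of all genes passed in TAC hearts and 0.0119% in sham hearts. The genes of the inducible HSP70 and its cytosolic partners varied strongly and together between mice of the same group, Hspa1a and Hspa1b by up to 35.0-fold and 40.5-fold within AAV9-GFP sham. Since whole tissue was sequenced, fewer cells of a type and less RNA per cell cannot be told apart for any of these values.

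Heat shock factor 1 is known to act through promoter elements. Of the members, Hspa1a and Hspa1b varied most between mice of the same group and Hspb7 varied least. The sequences just upstream of the start sites are shown for these genes, Hsph1 and Hspb1. They are RefSeq stretches of 150 bases on GRCm38.p6, printed 5′ to 3′ on the strand of the gene and ending at the base before the annotated start: chr17:34972157-34972306 (minus strand) for Hspa1a, chr17:34959239-34959388 (minus strand) for Hspa1b, chr5:149636337-149636486 (minus strand, the first of 2 annotated starts) for Hsph1, chr5:135887769-135887918 (plus strand) for Hspb1 and chr4:141420629-141420778 (plus strand) for Hspb7. Capitals mark the fixed letters of TTCNNGAA or GAANNTTC, the paired units of a heat shock element; each motif reads the same on both strands, and matches may overlap.
Hspa1a: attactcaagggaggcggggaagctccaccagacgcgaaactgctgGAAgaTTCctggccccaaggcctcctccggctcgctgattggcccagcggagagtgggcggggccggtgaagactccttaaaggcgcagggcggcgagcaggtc
Hspa1b: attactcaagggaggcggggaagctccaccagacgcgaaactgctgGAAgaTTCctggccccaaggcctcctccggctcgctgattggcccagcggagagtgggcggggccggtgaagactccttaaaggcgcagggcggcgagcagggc
Hsph1: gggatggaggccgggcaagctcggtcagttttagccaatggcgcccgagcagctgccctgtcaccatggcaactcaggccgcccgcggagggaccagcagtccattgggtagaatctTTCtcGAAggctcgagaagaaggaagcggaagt
Hspb1: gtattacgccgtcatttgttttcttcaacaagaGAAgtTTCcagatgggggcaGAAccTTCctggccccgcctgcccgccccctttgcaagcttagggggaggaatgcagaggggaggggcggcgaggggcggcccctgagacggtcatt
Hspb7: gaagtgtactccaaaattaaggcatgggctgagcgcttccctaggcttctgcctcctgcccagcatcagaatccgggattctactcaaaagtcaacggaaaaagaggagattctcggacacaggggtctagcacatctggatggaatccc
Hspa1a and Hspa1b held 1 match each, starting 104 bases upstream, in stretches that were nearly the same. Over the 250 bases upstream, 247 were identical between these neighbouring genes and 3 differed. Hspb1 held 2 matches, 117 and 97 bases upstream, Hsph1 held 1 at 33 bases, and Hspb7 held none. In all, 7.72% of the 32817 promoters in the table had a match within the same 150 bases. Over the whole window of 300 bases, from 250 before the start to 50 after it, either motif was found in 15.1% of promoters, 2 or more matches were found in 1.95%, and 5 of the 7 members with an entry had a match: Hspa1a, Hspa1b and Bag3 had 1, Hspb1 had 2 and Hsph1 had 3. Dnajb1, with 2 windows, and Hspb7 had none. Bag3 and Dnajb1 have an entry but are not printed. Within groups Dnajb1 varied nearly as much as Hsph1 (SD of log2 CPM 0.645 and 0.659). The members without an entry were Hspa8, Hsp90aa1 and Cryab. These matches are letters in a window and say nothing about binding. Whether they go with the spread between mice was not tested.

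Several members share sequence with other genes, which bears on every count that follows. Hspa1a (ENSMUSG00000091971, chr17:34969190-34972156) and Hspa1b (ENSMUSG00000090877, chr17:34956436-34959238) lie side by side on the minus strand of GRCm38, each with 1 exon. Of the 50-base stretches in their exons, the length of a read, 66.3% for Hspa1a and 62.3% for Hspa1b were also present in another annotated gene. The share was 50.1% for Hspb1 (ENSMUSG00000004951, chr5:135887919-135889563), nearly all of it in the pseudogene Hsp25-ps1, 47.5% for Hsp90aa1 (ENSMUSG00000021270, chr12:110690605-110702728) and 39.4% for Hspa8 (ENSMUSG00000015656, chr9:40800984-40810087). For Cryab (ENSMUSG00000032060, chr9:50751325-50756636), 13.3% lay in the overlap with Hspb2 on the opposite strand, and whether strand was used in counting was not given in the sources used here. Hsph1 (ENSMUSG00000029657, chr5:149614287-149636376) and Bag3 (ENSMUSG00000030847, chr7:128523616-128546981) shared 0%, Dnajb1 (ENSMUSG00000005483, chr8:83608193-83612653) 0.412% and Hspb7 (ENSMUSG00000006221, chr4:141420779-141425311) 0.703%. How reads with several matches were counted was not given either, so the levels of the 5 genes with large shares are uncertain. When each of these members was summed with the genes that share its sequence, a setting added after the data were seen, no call of a member changed.

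The libraries held 16441997 to 21904589 counts, and 3 counts corresponded to 0.126 to 0.195 CPM, which are counts scaled to a library of 1000000. Cardinal (Gm12295) was at 18.3 to 93.9 CPM in the 8 AAV9-Cardinal hearts and at 3.42 to 7.24 CPM in the 8 AAV9-GFP hearts, without overlap. The natriuretic peptide genes Nppa and Nppb and the skeletal actin gene Acta1 rose with TAC under both viruses, as 3 of the 4 hypertrophy markers listed. The summed level of 9 cardiomyocyte markers was 50060 to 53080 CPM in AAV9-GFP sham, 38820 to 46460 in AAV9-GFP TAC, 48140 to 53130 in AAV9-Cardinal sham and 46180 to 51190 in AAV9-Cardinal TAC. Markers of the atria summed to at most 2.53 CPM and those of lymphocytes had at most 9 counts in any mouse. Together the 10 chaperone genes took 3337 to 5662 CPM of a library.

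Levels of the members can be compared with one another only per length of exon. By median CPM per kilobase over the 16 mice, Cryab (810) and Hspb7 (684) stood highest, followed by Hspa8 (166), Hspb1 (113), Bag3 (111), Hsp90aa1 (28.9), Hsph1 (10.9), Hspa1a (6.95), Hspa1b (6.58) and Dnajb1 (5.03). The small heat shock proteins of muscle were thus the most abundant chaperone transcripts of the list per length. Over the mice, Hspb7 (569 to 965) did not overlap with Hspa8 (104 to 243), nor Bag3 (74.3 to 138) with Hsp90aa1 (11.9 to 55.4), and all other neighbours in this order overlapped. In the accounts that follow, CPM values are given in the order of the label numbers: 1, 2, 3 and 4 in both sham groups, 1, 3, 4 and 7 in AAV9-GFP TAC, and 1, 4, 5 and 6 in AAV9-Cardinal TAC.

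**Figure D1:**
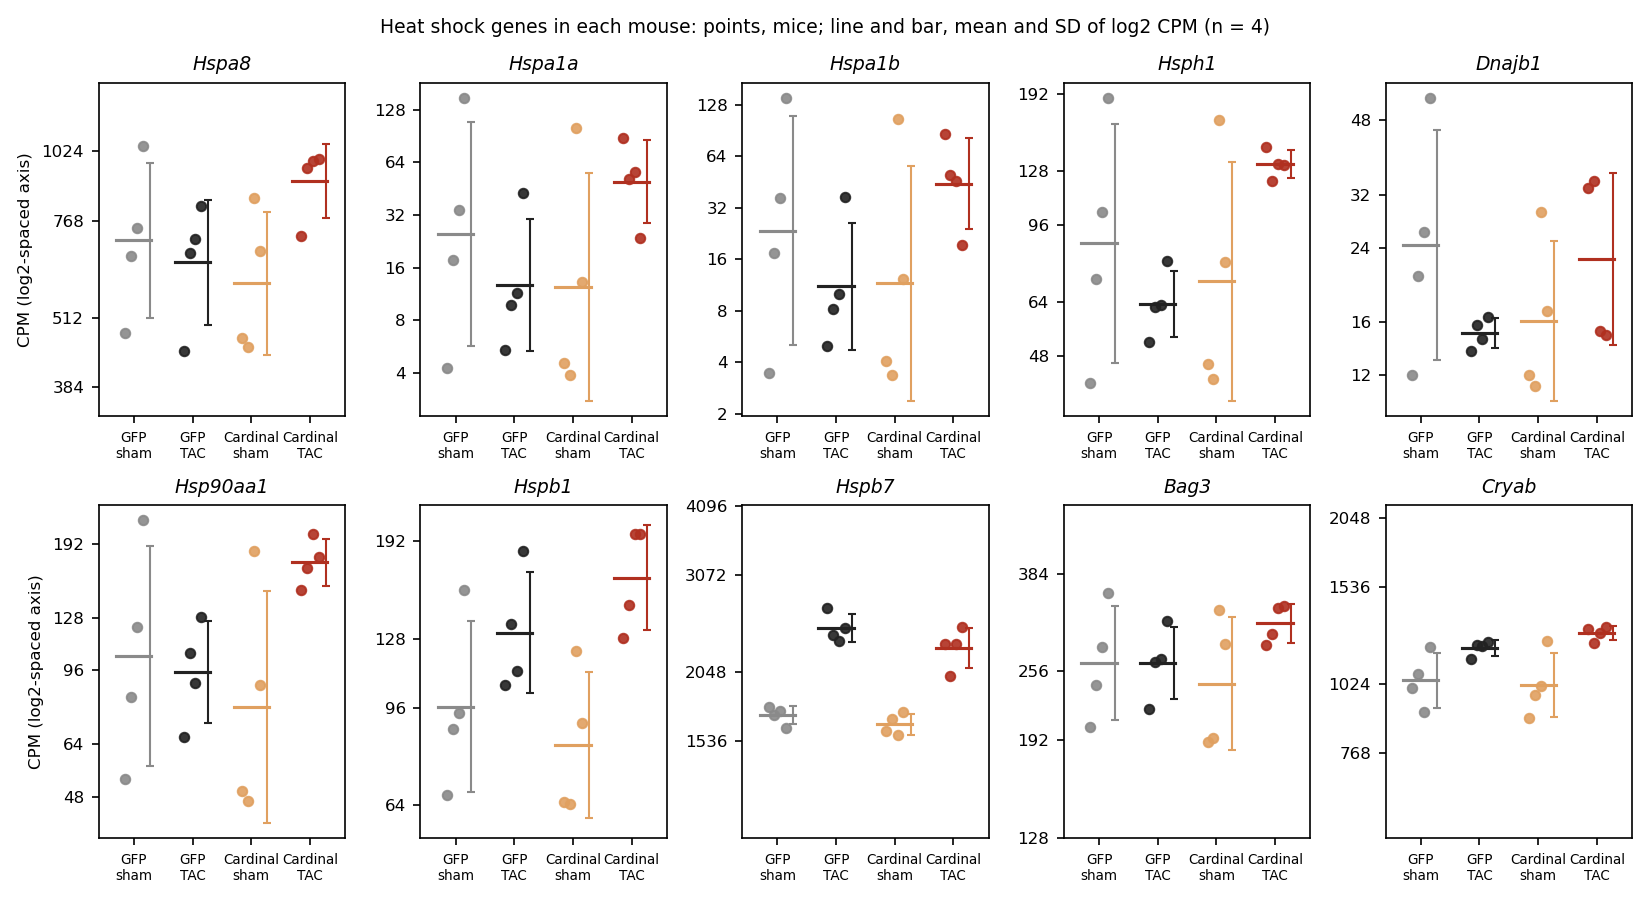
Level of each of the 10 members in CPM (vertical log axis) in the 4 groups, with a point for each mouse and a line and bar for the mean and SD of log2 CPM (n = 4). AAV9-Cardinal TAC lies at 122 to 145 CPM for Hsph1 and at 149 to 202 CPM for Hsp90aa1, Hspa1a and Hspa1b spread most widely in the sham groups, and for Hspb7 the 8 TAC mice lie above the 8 sham mice.

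Hspa8 encodes HSC70, the HSP70 protein made in unstressed cells. In AAV9-GFP hearts it was at 482, 664, 746 and 1047 CPM in the sham mice and at 446, 672, 711 and 817 CPM in the TAC mice. With the Cardinal virus it was at 471, 454, 845 and 678 CPM in the sham mice and at 719, 955, 985 and 991 CPM in the TAC mice. The sham and TAC ranges overlapped under both viruses, and 3 of the 4 AAV9-Cardinal TAC mice were above every other mouse except AAV9-GFP sham mouse 4. The log2 fold change with TAC was -0.15 (SE 0.24) in AAV9-GFP hearts and 0.58 (SE 0.24) in AAV9-Cardinal hearts, with adjusted p of 0.739 and 0.175 in edgeR's quasi-likelihood test.

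Hspa1a and Hspa1b encode near-identical forms of the stress-induced HSP70 protein. In AAV9-GFP hearts, Hspa1a was at 4.26, 17.7, 34.1 and 149 CPM in the sham mice and at 5.40, 9.78, 11.5 and 42.8 CPM in the TAC mice. In AAV9-Cardinal hearts it was at 4.56, 3.86, 100.5 and 13.2 CPM in the sham mice and at 88.2, 51.7, 56.2 and 23.5 CPM in the TAC mice. Within AAV9-GFP sham the highest mouse was thus 35.0 times the lowest, within AAV9-Cardinal sham 26.1 times, within AAV9-GFP TAC 7.93 times and within AAV9-Cardinal TAC 3.75 times, and every pair of groups overlapped.

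Hspa1b followed the same mice. It was at 3.45, 17.5, 36.5 and 139.8 CPM in AAV9-GFP sham, at 5.01, 8.22, 10.1 and 37.2 in AAV9-GFP TAC, at 4.07, 3.39, 106 and 12.3 in AAV9-Cardinal sham and at 85.9, 50.0, 46.1 and 19.4 in AAV9-Cardinal TAC. The log2 fold change of Hspa1a with TAC was -1.56 (SE 1.05, adjusted p = 0.357 by edgeR) in AAV9-GFP hearts and 0.84 (SE 1.02, adjusted p = 0.707) in AAV9-Cardinal hearts. The 95% intervals of these values, -3.81 to 0.68 and -1.34 to 3.02, span several-fold changes in either direction. Leaving out 1 mouse moved the value of Hspa1a in AAV9-GFP hearts between -2.53 (without TAC mouse 7) and -0.11 (without sham mouse 4), and in AAV9-Cardinal hearts between 0.47 (without sham mouse 2) and 2.99 (without sham mouse 3). Summed into 1 gene, the pair gave -1.63 (adjusted p = 0.348) and 0.76 (adjusted p = 0.749).

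Hsph1 encodes HSP110, a relative of HSP70 that releases ADP from it. It was at 41.7, 72.0, 103 and 188 CPM in AAV9-GFP sham and at 51.7, 62.3, 62.9 and 79.2 CPM in AAV9-GFP TAC. With the Cardinal virus it was at 46.0, 42.4, 168 and 79.2 CPM in the sham mice and at 145, 122, 133 and 132 CPM in the TAC mice. Every AAV9-Cardinal TAC mouse was above every AAV9-GFP TAC mouse, while the sham and TAC mice overlapped under each virus. With TAC the log2 fold change was -0.66 (SE 0.42, adjusted p = 0.331 by edgeR) in AAV9-GFP hearts and 0.67 (SE 0.42, adjusted p = 0.391) in AAV9-Cardinal hearts.

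Dnajb1 encodes HSP40, a J-domain protein that delivers clients to HSP70. In AAV9-GFP hearts it was at 12.01, 20.6, 26.2 and 54.2 CPM in the sham mice and at 13.7, 15.8, 14.6 and 16.5 CPM in the TAC mice. In AAV9-Cardinal hearts it was at 12.02, 11.3, 29.2 and 17.0 CPM in the sham mice and at 33.3, 34.5, 15.2 and 14.9 CPM in the TAC mice. Mice 1 and 4 of AAV9-Cardinal TAC were high and mice 5 and 6 were within the AAV9-GFP TAC range. The log2 fold change with TAC was -0.90 (SE 0.42, adjusted p = 0.160 by edgeR) in AAV9-GFP hearts and 0.50 (SE 0.42, adjusted p = 0.548) in AAV9-Cardinal hearts.

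Bag3 encodes a co-chaperone that exchanges the nucleotide of HSP70 and steers worn Z-disc proteins to autophagy together with small heat shock proteins. It was at 203, 242, 283 and 354 CPM in AAV9-GFP sham, at 219, 265, 269 and 316 in AAV9-GFP TAC, at 190.3, 194, 329.7 and 286 in AAV9-Cardinal sham and at 285, 298, 332 and 336 in AAV9-Cardinal TAC. All pairs of groups overlapped, and mice 3 and 4 of AAV9-Cardinal sham reached the range of its TAC mice. The log2 fold change with TAC was -0.02 (SE 0.18, adjusted p = 0.966 by edgeR) in AAV9-GFP hearts and 0.32 (SE 0.18, adjusted p = 0.333) in AAV9-Cardinal hearts.

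Hsp90aa1 encodes the inducible form of cytosolic HSP90. In AAV9-GFP hearts it was at 52.9, 82.7, 122 and 218 CPM in the sham mice and at 66.6, 105, 89.5 and 129 CPM in the TAC mice. In AAV9-Cardinal hearts it was at 49.7, 46.9, 184 and 88.6 CPM in the sham mice and at 149, 168, 202 and 178 CPM in the TAC mice. As for Hsph1, the AAV9-Cardinal TAC mice were all above the AAV9-GFP TAC mice, and AAV9-GFP sham mouse 4 and AAV9-Cardinal sham mouse 3 reached the levels of AAV9-Cardinal TAC. With TAC the log2 fold change was -0.28 (SE 0.43, adjusted p = 0.721 by edgeR) in AAV9-GFP hearts and 0.92 (SE 0.43, adjusted p = 0.227) in AAV9-Cardinal hearts. Without AAV9-Cardinal sham mouse 3 the latter was 1.5 with an adjusted p of 0.042 by edgeR, which is past the threshold. Of the 16 fits that left out 1 mouse, this was the only 1 that passed. Over the 16 fits the log2 fold change was 0.70 to 1.5 and the adjusted p by edgeR 0.042 to 0.45.

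Among the small heat shock proteins, Hspb1 was at 66.7, 88.0, 94.1 and 157 CPM in AAV9-GFP sham and at 106, 136, 112 and 185 CPM in AAV9-GFP TAC. In AAV9-Cardinal hearts it was at 64.9, 64.3, 122 and 90.2 CPM in the sham mice and at 129, 147, 198 and 198 CPM in the TAC mice. All AAV9-Cardinal TAC mice were above all AAV9-Cardinal sham mice, with the nearest pair at 129 and 122 CPM. Hspb1 rose with TAC in AAV9-Cardinal hearts, by 0.98 on the log2 scale (SE 0.27, 95% interval 0.41 to 1.55, adjusted p = 0.0438 by edgeR), and was 0.41 higher (SE 0.27, adjusted p = 0.337) in AAV9-GFP hearts. The call in AAV9-Cardinal hearts lay close to the threshold: it was lost in 10 of the 16 fits that left out 1 mouse, with an adjusted p of 0.051 to 0.127 in those 10, and its log2 fold change was between 0.86 and 1.20 over the 16. The call was also lost without the filter on low counts (adjusted p = 0.0757). Those 10 fits left out AAV9-Cardinal sham mouse 1, 2 or 4, AAV9-Cardinal TAC mouse 4, 5 or 6, AAV9-GFP sham mouse 2 or 3, or AAV9-GFP TAC mouse 3 or 4.

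Cryab encodes αB-crystallin, which binds desmin and titin in the sarcomere. It was at 1006, 1068, 910.5 and 1197 CPM in AAV9-GFP sham, at 1137, 1207, 1199 and 1222 in AAV9-GFP TAC, at 890.2, 977, 1017 and 1225 in AAV9-Cardinal sham and at 1287, 1214, 1267 and 1302 in AAV9-Cardinal TAC. In each virus 1 sham mouse, number 4, reached the TAC range, and the other 3 sham mice were below all TAC mice. The log2 fold change with TAC was 0.19 (SE 0.09, adjusted p = 0.159 by edgeR) in AAV9-GFP hearts and 0.30 (SE 0.09, 1.23-fold) in AAV9-Cardinal hearts. In the latter the adjusted p of 0.05 just missed the threshold, and DESeq2 called it with an adjusted p of 0.0137. By edgeR it passed without AAV9-Cardinal sham mouse 4 (adjusted p = 0.0134), AAV9-GFP sham mouse 3 (0.0424) or AAV9-GFP sham mouse 4 (0.0351). These were 3 of the 16 fits that left out 1 mouse. Over the 16 the log2 fold change was 0.24 to 0.40 and the adjusted p by edgeR 0.0134 to 0.141.

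Hspb7 encodes the small heat shock protein known as cvHSP, which binds filamin C and is found mainly in heart and skeletal muscle. It was at 1773, 1717, 1744 and 1622 CPM in AAV9-GFP sham and at 2672, 2392, 2330 and 2462 CPM in AAV9-GFP TAC. With the Cardinal virus it was at 1604, 1682, 1575 and 1733 CPM in the sham mice and at 2304, 2016, 2303 and 2467 CPM in the TAC mice. All 8 TAC mice were above all 8 sham mice. Hspb7 rose with TAC by 0.52 on the log2 scale (SE 0.06, 95% interval 0.40 to 0.65, adjusted p = 5.08e-05 by edgeR) in AAV9-GFP hearts and by 0.46 (SE 0.06, 95% interval 0.34 to 0.59, adjusted p = 0.000999) in AAV9-Cardinal hearts. It passed in each of the 16 fits that left out 1 mouse under both viruses. The difference between these responses was -0.06 (SE 0.08, 95% interval -0.24 to 0.12).

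**Figure D2:**
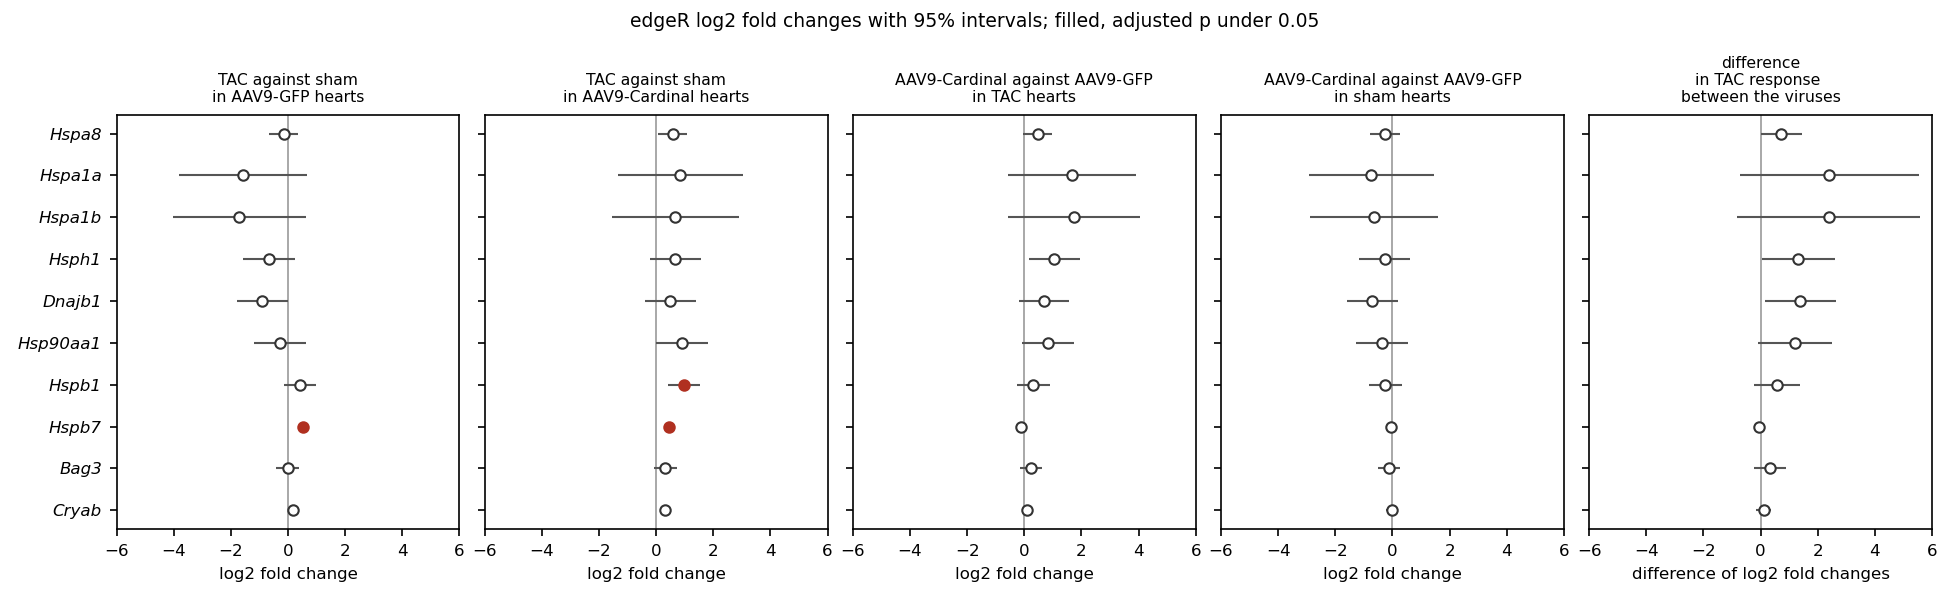
Log2 fold change of each member (horizontal axis) with its 95% interval from edgeR, in a panel for each of the 5 comparisons, with filled points where the adjusted p was under 0.05. Filled are Hspb7 in both TAC panels (0.52 and 0.46) and Hspb1 in AAV9-Cardinal hearts (0.98), and the intervals of Hspa1a and Hspa1b are the widest in every panel.

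With TAC in AAV9-GFP hearts, 1 of the 10 members was thus called, Hspb7, beside 17.4% of all genes tested. In the upward direction this share was 8.49% and in the downward direction 8.92%. Hspb7 was also the 1 member without overlap between sham and TAC mice, a state found for 20.3% of all genes. The members' median log2 fold change was -0.22 and 3 of 10 were positive, against a median of 0.0050 and 50.9% positive over all genes. In AAV9-Cardinal hearts, 2 of the 10 were called, Hspb1 and Hspb7, beside 6.48% of all genes, of which 3.1% were higher and 3.38% lower; these 2 did not overlap, which held for 13.7% of all genes. All 10 log2 fold changes were positive there, with a median of 0.62 against -0.00047 over all genes, of which 49.9% were positive. The members vary together between mice, as shown further on, so that these counts of signs are not 10 separate observations.

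Between the viruses in TAC hearts, none of the members was called by edgeR, beside 0.101% of all genes. That background of 17 genes was unstable: it was 0 to 540 when 1 mouse was left out, with 540 without AAV9-Cardinal TAC mouse 1, and 428 by DESeq2, of which 68% were higher in AAV9-Cardinal TAC against 23.5% of the 17. Only Hsph1, 1 of the 10, had an unadjusted p under 0.05 in edgeR, a cutoff at which the share of all genes was not determined. DESeq2 called 0 members. Hsph1 was 2.08-fold higher in AAV9-Cardinal TAC (133 ± 9.69 CPM, SD, n = 4) than in AAV9-GFP TAC (64.0 ± 11.4 CPM, SD, n = 4), a log2 difference of 1.05 (SE 0.42, 95% interval 0.15 to 1.96, adjusted p = 0.256 by edgeR). Hsp90aa1 was 1.79-fold higher (174 ± 22.1 against 97.5 ± 26.2 CPM, SD, n = 4 each), a log2 difference of 0.84 (SE 0.43, adjusted p = 0.377 by edgeR). These were the 2 members whose TAC groups did not overlap, beside 6.77% of all genes. Fitted on the 8 TAC mice alone, Hsph1 passed, with a log2 difference of 1.05 and an adjusted p of 0.0457. Hspa1a and Hspa1b had the largest fold differences between the TAC groups, 3.17 and 3.34, with adjusted p of 0.496 and 0.490. The other members differed by between -0.12 (Hspb7) and 0.69 (Dnajb1) on the log2 scale.

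Between the viruses in sham hearts, 0 members were called by edgeR, 0 had an unadjusted p under 0.05 and DESeq2 called 0, beside 0.0119% of all genes called. No member was without overlap, a state found for 2.36% of all genes. All 10 log2 differences were below 0, from -0.74 to -0.03, with a median of -0.27. This direction rests on AAV9-GFP sham mouse 4: without it, the difference turned positive for 7 of the 10 members, among them Hspa1a (0.71) and Hsph1 (0.22), while without AAV9-Cardinal sham mouse 3 the difference of Hspa1a was -2.89.

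The design also asks whether the response to TAC differed between the viruses. None of the 10 members was called by edgeR for this difference, beside 0.0119% of all genes, and DESeq2 called 0. An unadjusted p under 0.05 in edgeR, for which the share of all genes was not determined, was found for 3. These were Hspa8 (0.73 on the log2 scale, SE 0.34, adjusted p = 0.488 by edgeR), Hsph1 (1.32, SE 0.60, adjusted p = 0.467) and Dnajb1 (1.40, SE 0.59, adjusted p = 0.439). Largest in size were Hspa1a (2.41, SE 1.47) and Hspa1b (2.38, SE 1.51). The AAV9-GFP and AAV9-Cardinal responses enter this difference with the sham groups, and without AAV9-GFP sham mouse 4 the value of Hspa1a was 0.95 and that of Hsph1 was 0.84. Without AAV9-Cardinal sham mouse 3 they were 4.55 and 1.91. Hspb7 (-0.06) and Cryab (0.11, SE 0.12) were nearest 0.

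The spread between mice of 1 group separated the members more clearly than the groups did. On the log2 CPM scale, the SD within groups was 1.75 for Hspa1b and 1.68 for Hspa1a, which ranked 53 and 55 among the 14293 genes whose mean reached 1 CPM, where the median gene had 0.146. Hsp90aa1 (0.668), Hsph1 (0.659) and Dnajb1 (0.645) ranked 274, 281 and 300. Hspb1 (0.414), Hspa8 (0.384) and Bag3 (0.290) followed at ranks 867, 1073 and 2247. Cryab (0.131) and Hspb7 (0.0855) were below the median gene. From the lowest to the highest of the 16 mice, Hspa1b spanned 41.2-fold and Hspa1a 38.7-fold, the other inducible or constitutive members 1.86-fold (Bag3) to 4.80-fold (Dnajb1), Hspb7 1.70-fold and Cryab 1.46-fold. With at least 73 counts in every mouse, counting error is small beside these spans.

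**Figure D3:**
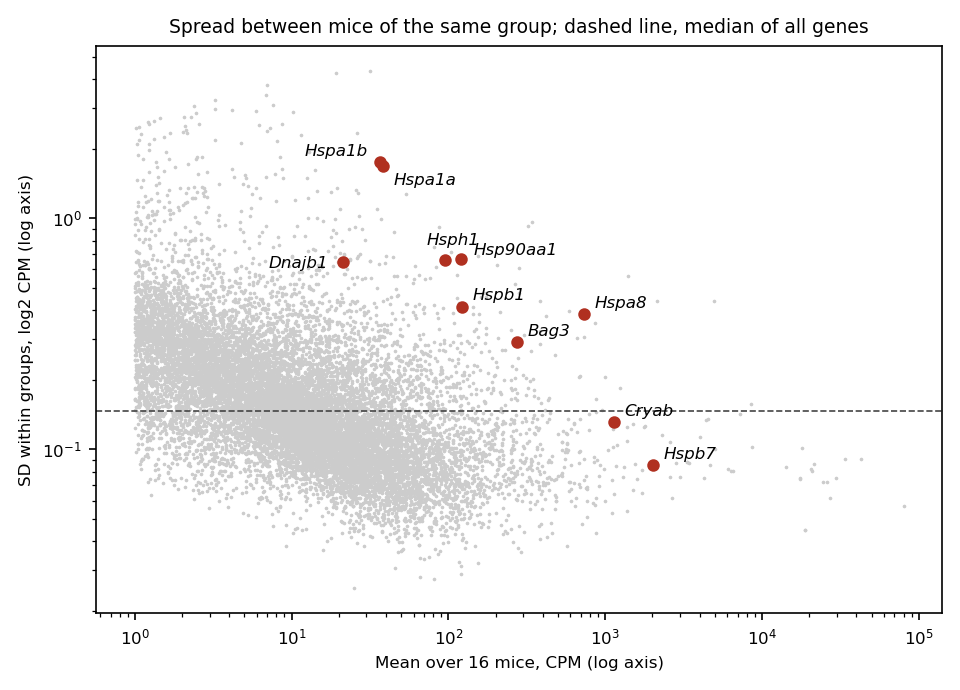
SD of log2 CPM within groups (vertical log axis) against mean CPM over the 16 mice (horizontal log axis), for the 10 members (red) and the other genes ranked (grey), with the median of all genes, 0.146, as a dashed line. Hspa1b (1.75) and Hspa1a (1.68) lie far above it and Cryab (0.131) and Hspb7 (0.0855) below it.

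The same mice were high for most members. AAV9-GFP sham mouse 4 had the highest level of its group for 9 of the 10 members and mouse 1 the lowest for 8. In AAV9-GFP TAC, mouse 7 was highest for 9 and mouse 1 lowest for 9. Mouse 3 of AAV9-Cardinal sham was highest for 8, and mouse 2 was lowest for 7. AAV9-Cardinal TAC had no such order, with mouse 6 highest for 5 and lowest for 3.

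**Figure D4:**
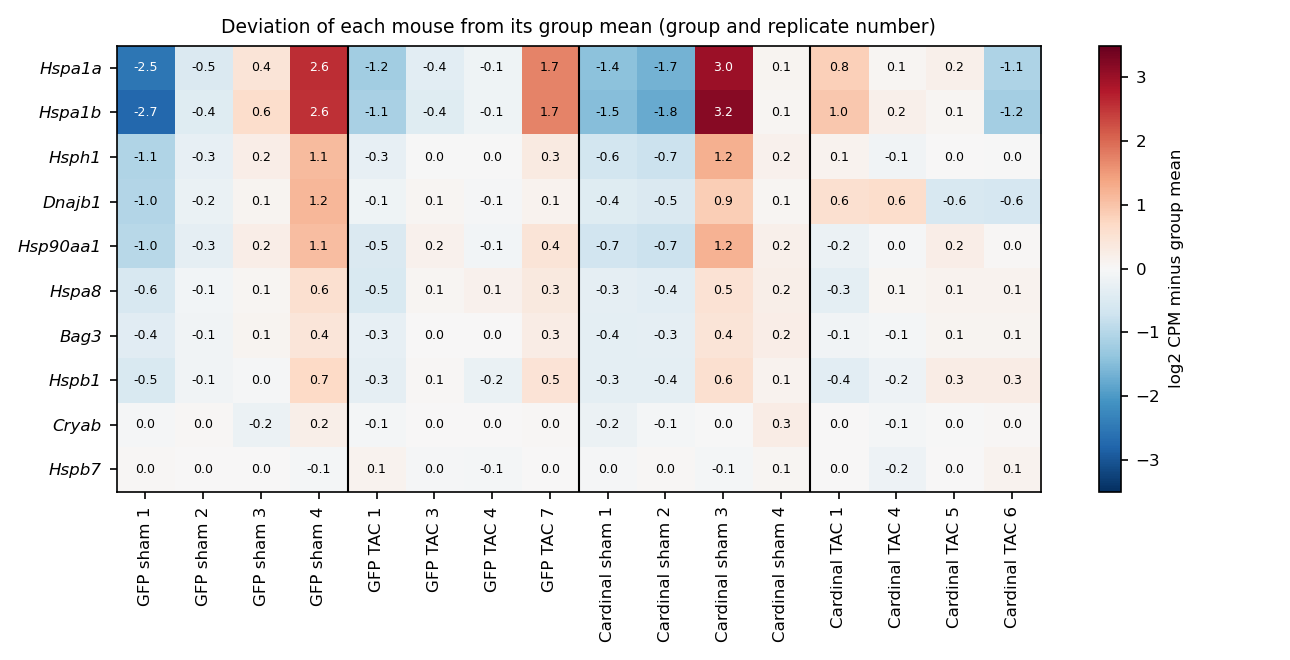
Deviation of each mouse's log2 CPM from its group mean, with the members as the vertical axis, the 16 mice in their 4 groups as the horizontal axis and color and printed value for the deviation (red, above the mean). GFP sham 4, GFP TAC 7 and Cardinal sham 3 are red over most members, which they lead in 9, 9 and 8 of 10 cases, and the lines of Cryab and Hspb7 are near white.

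Pairs of members were correlated over the 16 mice after each group's mean log2 CPM was subtracted, with exact two-sided permutation within the groups (331776 arrangements) and adjustment over all 45 pairs. The 8 members other than Hspb7 and Cryab, a division made after the values were seen, correlated with r from 0.532 to 0.998 over their 28 pairs, with a median of 0.871 and Spearman's rho from 0.418 to 0.982. In 27 of these 28 pairs the adjusted permutation p of r was under 0.05, the other pair being Dnajb1 and Hspb1 (r = 0.532, rho = 0.418, adjusted permutation p = 0.121 for r). For this last pair r was 0.195 without the 2 mice farthest from the median, the lowest such value of the 28.

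Hspa1a and Hspa1b, which share sequence and may share reads, had r = 0.998 (rho = 0.982, adjusted permutation p = 0.000136 for r), and r was 0.997 without the 2 farthest mice. Hsph1 and Hsp90aa1, which share no 50-base stretch, came next with r = 0.973 (rho = 0.935, permutation p = 0.000184, adjusted 0.000647 for r and 0.00235 for rho), and r was 0.936 without the 2 farthest mice. For the constitutive HSP70 gene Hspa8 and its co-chaperone Bag3, r was 0.958 (rho = 0.941, adjusted permutation p = 0.000136 for r), also without those mice. The inducible HSP70 gene Hspa1a and Hsph1 had r = 0.954 (rho = 0.947, adjusted permutation p = 0.000377 for r), and 0.901 without the 2 farthest mice.

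Cryab and Hspb7, the members set aside after the values were seen, mostly had lower r with the 8, and no difference between values of r was tested. Cryab correlated with the 8 members with r from 0.346 to 0.578, which overlaps the range within the 8 (from 0.532). No adjusted permutation p of Cryab was under 0.05 (lowest 0.149). Hspb7 had r below 0 with all 8, from -0.572 to -0.166, but from -0.519 to 0.115 without the 2 farthest mice. Only 1 of these 8 pairs had an adjusted permutation p of r under 0.05. The lowest was with Dnajb1 (r = -0.572, permutation p = 0.019, adjusted 0.033; rho = -0.574, adjusted 0.0609; r = -0.519 without the 2 farthest mice). Between Hspb7 and Cryab r was 0.0631.

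To see which other measures moved with the inducible HSP70 genes, the summed level of Hspa1a and Hspa1b was set against 22 others in the same way. Dnaja1, a J-domain partner of HSC70, had r = 0.968 (rho = 0.926, permutation p = 4.22e-05, adjusted 0.000464 for r and 0.00179 for rho), and 0.939 without the 2 farthest mice. Hsp90ab1, the constitutive cytosolic HSP90, had r = 0.914 (rho = 0.891, permutation p = 2.41e-05, adjusted 0.000464 for r and 0.00209 for rho, 0.868 without the 2 farthest). Stip1, which links HSP70 to HSP90, had r = 0.862 (rho = 0.885, permutation p = 0.00162, adjusted 0.0119 for r and 0.00265 for rho, 0.774 without the 2 farthest).

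The other chaperone genes set against the inducible pair, and Hsf1, did not pass adjustment, which does not show that their relation differed from those just given. Among them were the small heat shock protein genes Hspb8 (r = 0.552, adjusted permutation p = 0.234) and Hspb6 (r = 0.390, adjusted 0.458). The mitochondrial chaperonin genes Hspd1 (r = 0.718) and Hspe1 (r = 0.691) had positive r (adjusted permutation p = 0.133 and 0.155). For Hspa5, the HSP70 protein of the endoplasmic reticulum, r was 0.268 (rho = 0.200, adjusted permutation p = 0.628), and for Hsf1, the gene of heat shock factor 1, it was 0.134 (rho = 0.0853, adjusted permutation p = 0.780). Library total (r = -0.0495, adjusted permutation p = 0.838), the share of mitochondrially encoded counts (r = 0.288, adjusted 0.628) and the summed markers of cardiomyocytes (r = -0.131, adjusted 0.762), fibroblasts (r = 0.042, adjusted 0.843) and erythroid cells (r = 0.401, adjusted 0.239) did not pass either.

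**Figure D5:**
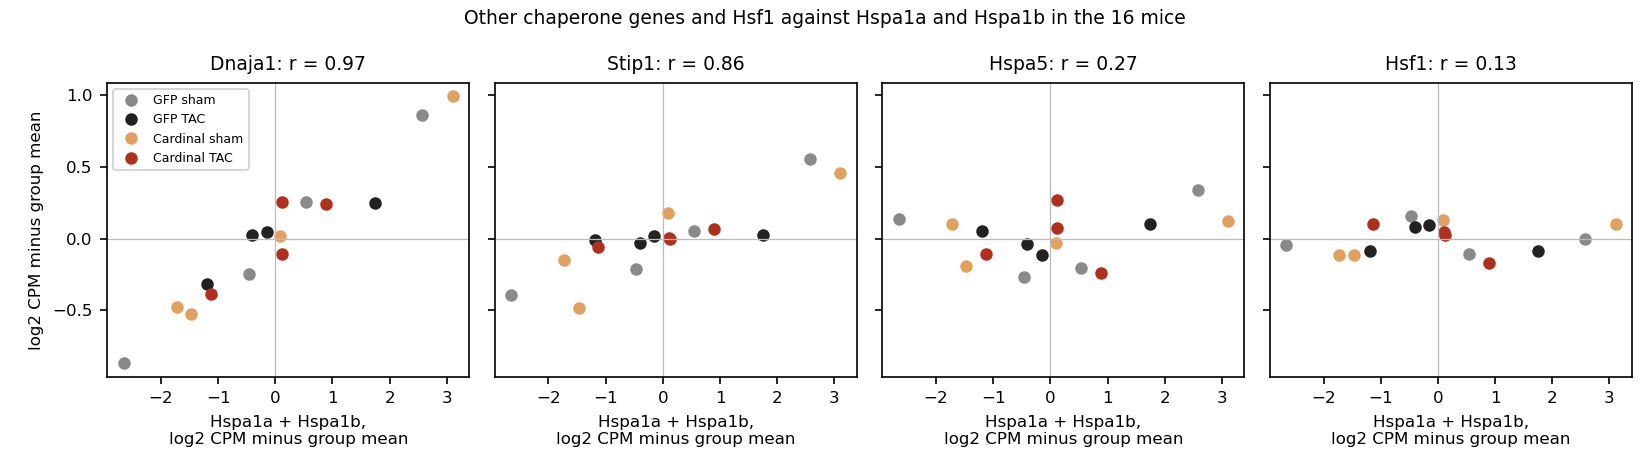
Log2 CPM minus group mean of Dnaja1, Stip1, Hspa5 and Hsf1 (vertical axes) against the same for Hspa1a and Hspa1b summed (horizontal axes), with a point for each of the 16 mice colored by group. Dnaja1 (r = 0.97) and Stip1 (r = 0.86) climb with the inducible pair, and Hspa5 (r = 0.27) and Hsf1 (r = 0.13) show little slope.

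By likeness of this pattern over the 16 mice, ranked over 14292 genes as a description, Dnaja1 (r = 0.964) was among the nearest genes to Hspa1a after Hspa1b and the gene model Gm6335 (r = 0.967). Hsph1 was nearest to P4ha1 (r = 0.976), a subunit of collagen prolyl hydroxylase, then to Gm12346 and Hsp90aa1 (both r = 0.973). Dnajb1 was nearest to Ccdc117 (r = 0.949), Elovl5 (r = 0.933) and Dnaja1 (r = 0.932). Next to Hspb1 stood its pseudogene Hsp25-ps1 (r = 0.994), the J-domain gene Dnaja4 (r = 0.961) and Tnfrsf12a (r = 0.945). For Hspa8 and Hsp90aa1 the nearest genes were models that hold stretches of their sequence, Gm7232 (r = 0.999) and Gm12346 (r = 0.999), and for Bag3 they were Gm12346 (r = 0.967) and Hsp90aa1 (r = 0.966). Hspb7 was nearest to Gm12799 (r = 0.866) and Cav3 (r = 0.821), and Cryab to Cop1 (r = 0.961) and Zmynd19 (r = 0.930).

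Of 93 other chaperone genes listed by family, 91 were tested. With TAC in AAV9-GFP hearts 4 rose and 13 fell, 18.7% of them beside 17.4% of all genes, with a median log2 fold change of -0.09. In AAV9-Cardinal hearts 3 rose and 2 fell, 5.49% beside 6.48% of all genes, with a median of 0.09. Between the viruses in TAC hearts edgeR called none of the 91, beside 0.101% of all genes, 22 had an unadjusted p under 0.05 and DESeq2 called 6. In sham hearts these numbers were 0, 2 and 0, and for the difference in response 0, 20 and 3, beside 0.0119% of all genes called by edgeR in each. Of all genes DESeq2 called 428, 4 and 137 in these comparisons. The share of all genes at an unadjusted p under 0.05 was not determined, so such counts, here and for the families below, are not read as a result about chaperones.

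Of the other small heat shock proteins, which include further muscle forms, 4 were tested. Hspb6, or HSP20, rose 1.66-fold with TAC in AAV9-GFP hearts (590.1 ± 31.9 to 980.7 ± 39.0 CPM, SD, n = 4 each; log2 fold change 0.73, SE 0.05, adjusted p = 9.3e-07 by edgeR) and 1.40-fold in AAV9-Cardinal hearts (0.48, SE 0.05, adjusted p = 0.000481). Hspb8, the partner of BAG3 in selective autophagy, rose by 0.30 in AAV9-GFP hearts (SE 0.09, adjusted p = 0.0303 by edgeR) and was 0.21 higher in AAV9-Cardinal hearts (SE 0.09, adjusted p = 0.183). Hspb2, which overlaps Cryab on the opposite strand, had log2 fold changes of -0.32 (adjusted p = 0.0692 by edgeR) and -0.03 (adjusted p = 0.914), and Hspb3 of 0.28 (adjusted p = 0.197) and 0.20 (adjusted p = 0.462). In all, 2 of these 4 rose in AAV9-GFP hearts and 1 in AAV9-Cardinal hearts. Of all genes, 8.49% rose in AAV9-GFP hearts and 3.1% in AAV9-Cardinal hearts. Of 8 listed partners of BAG3 in chaperone-assisted autophagy and the Z-disc, 3 rose under both viruses: Flnc, the filamin C client of this pathway, by 1.07 and 0.98 on the log2 scale, Synpo2l by 1.57 and 1.10, and the desmin gene Des by 0.52 and 0.27. Map1lc3b fell by 0.20 in AAV9-GFP hearts.

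Calls in the cytosolic families around the inducible members stand beside 17.4% of all genes in AAV9-GFP hearts and 6.48% in AAV9-Cardinal hearts. The lists are short, so their counts are not read as a result about these families. For the other HSP70 and HSP110 genes, Hspa12a fell under both viruses, by 0.32 and 0.34 on the log2 scale, and Hspa4, an HSP110 relative, rose by 0.27 in AAV9-Cardinal hearts (adjusted p = 0.0246 by edgeR), as 1 of 8 and 2 of 8 tested. Of 15 other HSP90 genes and co-chaperones, Fkbp4, Aarsd1 and Unc45b fell in AAV9-GFP hearts and edgeR called 0 in AAV9-Cardinal hearts, where 5 had an unadjusted p under 0.05 and DESeq2 called 0. Of 15 other J-domain genes edgeR called 0 under either virus, with 5 and 2 at an unadjusted p under 0.05 and 1 called by DESeq2 in each. Dnaja1 was 0.76 lower with TAC in AAV9-GFP hearts (SE 0.35, adjusted p = 0.158 by edgeR) and 0.46 higher in AAV9-Cardinal hearts (SE 0.35, adjusted p = 0.492). Hsp90ab1 stood at -0.22 and 0.21, with adjusted p of 0.289 and 0.389, and Stip1 at -0.28 and 0.29, with adjusted p of 0.359 and 0.408. Of 9 other exchange factors and ubiquitin co-chaperones of HSP70, Bag2, a relative of BAG3, rose under both viruses, by 0.52 and 0.31, and Stub1, the ubiquitin ligase CHIP, fell in AAV9-GFP hearts by 0.19 (adjusted p = 0.0274 by edgeR) and had -0.04 in AAV9-Cardinal hearts (adjusted p = 0.762).

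The heat shock factor genes gave 0 calls of 4 tested by edgeR and by DESeq2 under both viruses, and 0 at an unadjusted p under 0.05. Hsf1 was between 20.1 and 24.9 CPM in all 16 mice. Over all genes, 17.4% were called with TAC in AAV9-GFP hearts and 6.48% in AAV9-Cardinal hearts. Of 11 mitochondrial chaperones, 1 rose (Grpel2) and 5 fell in AAV9-GFP hearts (54.5% called, beside 17.4% of all genes), among them Clpx by 0.27, Hspd1 by 0.26 and Trap1 by 0.25, and in AAV9-Cardinal hearts Clpx alone fell, by 0.40. Of 17 chaperones of the endoplasmic reticulum, Canx, Sil1 and Sdf2l1 fell in AAV9-GFP hearts and none passed in AAV9-Cardinal hearts, where edgeR found 3 with an unadjusted p under 0.05 and DESeq2 called 1. Hspa5 was 0.37 lower in AAV9-GFP hearts (adjusted p = 0.0639 by edgeR) and 0.08 higher in AAV9-Cardinal hearts (adjusted p = 0.789). For the 8 subunits of the cytosolic chaperonin edgeR called 0 under either virus, with 0 and 4 at an unadjusted p under 0.05 and 0 by DESeq2.

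Markers of other cells moved with surgery beside these values. Their counts of calls stand beside 17.4% of all genes in AAV9-GFP hearts and 6.48% in AAV9-Cardinal hearts. The summed level of 8 fibroblast markers was 519 to 588 CPM in AAV9-GFP sham, 904 to 1169 in AAV9-GFP TAC, 505 to 564 in AAV9-Cardinal sham and 530 to 990 in AAV9-Cardinal TAC, and 5 of the 8 rose in AAV9-GFP hearts (most of all Postn, Col3a1, Col1a1 and Col1a2) and 1, Postn, in AAV9-Cardinal hearts. Of the 9 cardiomyocyte markers 6 fell in AAV9-GFP hearts (most of all Tnni3, Pln, Tnnt2 and Myh6) and 1, Pln, in AAV9-Cardinal hearts. Hspb7 and Hspb6, which are muscle genes, rose in AAV9-GFP hearts, where the summed cardiomyocyte markers were lower. Within that sum Myh6 had a mean of 19200 CPM in AAV9-GFP sham and 15330 in AAV9-GFP TAC. Actc1 (6907 and 7496), Ttn (3901 and 3901) and Myl3 (2589 and 2487) were not called. The part of cell composition in the members' values was not tested.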

How the data were processed

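RNA from the heart apex was poly(A)-selected and sequenced in single-end reads of 50 bases. The deposited table holds the authors' unnormalized read counts, with Ensembl gene IDs as lines and the 16 mice as columns. The submitters' processing notes name FastQC, HISAT2 2.1.0, edgeR 3.26.1 and GRCm38; the counting program, the annotation and the use of strand and of reads with several matches were not given in the sources used here. Of 55573 gene IDs, 55394 were named with GENCODE M21. Totals were 16441997 to 21904589 counts per mouse (median 21723766), and the floor of 3 counts covers counting error only. Mitochondrially encoded genes took 30.35% to 34.02% of the counts. Mice of 1 group always differed beyond sampling noise (chi-square per degree of freedom 5.32 to 16). That they are separate animals follows from the study's design.

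The tests used edgeR 4.0.16 in R 4.3.3. Libraries were scaled by TMM, low genes were removed by filterByExpr with the groups given, and 1 quasi-likelihood model over the 16 mice gave the 5 contrasts. The p-values were adjusted over all 16857 genes by Benjamini-Hochberg with a threshold of 0.05. CPM used the TMM-normalized library sizes, and log2 CPM a prior count of 2. Correlations were over group-centred log2 CPM, with exact two-sided permutation within groups (331776 arrangements, smallest p 3e-06), in Python 3.11.15 with numpy 2.4.6, scipy 1.17.1, pandas 2.3.3 and matplotlib 3.10.9. The fit was tested on simulated data. Promoters came from RefSeq (GRCm38.p6), and shared sequence from GENCODE M21 on GRCm38.

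All 10 members are named. From each other list up to 4 genes past the threshold with at least 1 CPM in the higher group are named, those with the largest change, and Hsf1, Hspa5, Hsp90ab1, Hspb6, Hspb8, Hspd1, Hspe1, Dnaja1, Stip1 and Cirbp always. Hspb2, Hspb3 and Rbm3 were named after their values were seen. The 3 genes most like each member were taken by Pearson's r, of which some are named. The members and lists were chosen with earlier results of these data known. The alternatives were DESeq2 1.42.0, RLE size factors, no filter on low counts, only the 8 mice compared, Hspa1a and Hspa1b summed, the replicate number as a block, mitochondrially encoded genes left out, each mouse left out, and, chosen after seeing the data, members summed with genes that share at least 10% of their 50-base stretches.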

Additional observations from a re-analysis of the deposited data

Results flagged for a closer look

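In a group of 4, a mouse is named here when its gap to the nearest of the others, divided by the range of the group, was above Dixon's 95% critical value. Of 44 groups tested (10 members and the library total in 4 groups), 6 met this. The rule assumes normally spread values and was applied to CPM, not to log2 CPM. A count of 2.2 expected by chance would also need separate tests, and the members vary together, so 6 is not read as an excess. Hspa1a was at 100.5 CPM in AAV9-Cardinal sham mouse 3, with the other 3 mice at 3.86 to 13.2 CPM, and Hspa1b at 105.9 CPM, with the others at 3.39 to 12.3. In AAV9-GFP TAC mouse 7, Hspa1a was at 42.83 CPM (the others at 5.40 to 11.5) and Hspa1b at 37.18 CPM (the others at 5.01 to 10.1). Since the pair shares sequence and varied together (r = 0.998), these 4 values are not taken as 4 separate observations. Hspa8 was at 719.1 CPM in AAV9-Cardinal TAC mouse 1, below the other 3 at 954.8 to 991 CPM. The same mouse had the highest Cardinal level, 93.9 CPM against 18.3 to 20.6 in the others of its group. Of the 10 members, that mouse was highest in its group for 3 (Hspa1a, Hspa1b and Hsph1) and lowest for 4 (Hspa8, Hspb1, Bag3 and Hsp90aa1). The library of AAV9-Cardinal sham mouse 4 was the smallest with 16441997 counts, the others of its group holding 21603910 to 21786630. Causes of these values were not tested.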

How the results depend on the processing

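Hspb7 passed with TAC in AAV9-GFP hearts under every alternative run, and in AAV9-Cardinal hearts under all but the replicate block (0.38, adjusted p = 0.089). DESeq2 called 428 genes between the viruses in TAC hearts (68% higher, against 23.5% of the 17 by edgeR), 4 in sham hearts and 137 for the difference in response (87.6% higher, against 50% of 2), and 0 members in each. Without a filter on low counts Hspb1 missed the threshold in AAV9-Cardinal hearts (adjusted p = 0.0757), which left 1 member called there, with 615 genes in place of 1092, and 3 genes between the viruses in TAC hearts. With only the 8 mice compared, 1 member (Hsph1) and 3 genes were called between the viruses in TAC hearts. Without mitochondrially encoded genes 30 genes were called there, and Cryab passed with TAC in AAV9-Cardinal hearts (adjusted p = 0.0499). No label says what the mouse numbers share. Of 16 same-numbered pairs, 14 correlated above 0 and 5 above 0.1 (range -0.0535 to 0.264), with all 6 pairs of mice numbered 1 above 0, and 6 of 16 mice correlated best with their own number. Since not every pair was above 0.1, the numbers were not taken to pair the mice. With the replicate block, 0 members and 31 genes were called with TAC in AAV9-Cardinal hearts, where Hspb1 had 0.75 (adjusted p = 0.217), and 0, 1 and 1 genes between the viruses in TAC hearts, in sham hearts and for the difference in response. This block left 6 residual degrees of freedom, and 3 numbers had 1 mouse.

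With each mouse left out in turn, 1 member was called in AAV9-GFP hearts throughout and 1 to 3 in AAV9-Cardinal hearts. All genes called were 1970 to 3064 in AAV9-GFP hearts, 404 to 1457 in AAV9-Cardinal hearts, 0 to 540 between the viruses in TAC hearts, 1 to 3 in sham hearts and 2 to 79 for the difference in response. The counts of 1457, 540 and 79 came without AAV9-Cardinal TAC mouse 1, 404 without AAV9-Cardinal TAC mouse 5 and 0 without any 1 of 8 mice (AAV9-Cardinal sham 2 or 3, AAV9-Cardinal TAC 4, 5 or 6, AAV9-GFP sham 2 or 3, AAV9-GFP TAC 3). Log2 fold changes that changed sign did so in 14 such values (772 kept direction and side of the threshold), none of them called. With TAC in AAV9-GFP hearts these were Hspa8 (-0.308 to 0.0688), Hsp90aa1 (-0.53 to 0.185) and Bag3 (-0.133 to 0.139). Between the viruses in sham hearts they were Hspa1a (-2.89 to 0.714), Hspa1b (-2.96 to 0.722), Hsph1 (-0.861 to 0.216), Hsp90aa1 (-0.95 to 0.104), Hspb1 (-0.473 to 0.04), Bag3 (-0.276 to 0.0432) and Cryab (-0.121 to 0.0462). Under the other alternatives 344 log2 fold changes kept their direction and their side of the threshold, 6 changed side, as given, and none changed sign. The cause of these changes was not tested. The within-group SD was above 0.6 on the log2 scale for 5 members, and the part of depth was not tested.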

Other observations

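Some further groups of genes were measured beside the chaperones. With TAC, 17.4% of all genes were called in AAV9-GFP hearts and 6.48% in AAV9-Cardinal hearts. Cirbp, a cold-inducible RNA-binding protein whose transcript is known to fall as temperature rises, fell with TAC in AAV9-Cardinal hearts, from 27.3 ± 4.07 to 14.6 ± 3.23 CPM (SD, n = 4 each; log2 fold change -0.91, SE 0.22, adjusted p = 0.0266 by edgeR), and was lower by 0.44 (log2) in AAV9-GFP hearts (SE 0.22, adjusted p = 0.19). Rbm3, its relative, had log2 fold changes of -0.28 (SE 0.09, adjusted p = 0.0822) and -0.06 (SE 0.09, adjusted p = 0.701). Against the summed level of Hspa1a and Hspa1b in the 16 mice, Cirbp had r = -0.561 (permutation p = 0.0519, adjusted over 22 relations 0.163).

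Of 17 immediate-early genes, which are transcribed within minutes of a stimulus, 8 rose with TAC in AAV9-GFP hearts (most of all Egr2, Egr3, Junb and Myc) and 3 in AAV9-Cardinal hearts (Egr3, Btg2 and Jun). Their summed level had r = 0.643 with Hspa1a and Hspa1b (rho = 0.694, permutation p = 0.0303, adjusted 0.133 for r and 0.0545 for rho). Of 15 clock genes, Arntl rose and Nr1d2 and Per2 fell in AAV9-GFP hearts and Nr1d2 fell in AAV9-Cardinal hearts, and their sum had r = -0.314 with the pair (adjusted permutation p = 0.381). Of the other marker lists, 2 of 7 endothelial genes (Cdh5 and Egfl7) and 2 of 6 mural cell genes (Pdgfrb and Cspg4) rose in AAV9-GFP hearts. No macrophage or erythroid marker was called by edgeR with TAC under either virus.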
